A study of Mus musculus with 2 samples.

Results

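Oxidative phosphorylation (OXPHOS) genes of both genomes were followed across the cells of mouse pancreatic islets. Members were the genes whose symbols start with Nduf, Uqcr, Atp5, Sdha to Sdhd, Cox4 to Cox8, mt-Nd, mt-Co, mt-Cytb or mt-Atp and that held at least 50 unique molecular identifiers (UMIs, each one captured transcript) over both libraries. Of 31053 genes listed, 110 met the names and 105 also met the minimum. These were 92 genes of the nuclear genome and 13 of the mitochondrial genome. Among the nuclear genes, 78 encode subunits, 12 are assembly factors (Ndufaf and Sdhaf genes) and 2 (Cox7a2l and Atp5s) encode associated proteins, so the list is wider than the complexes themselves. The 5 entries under the minimum were Cox6b2 with 43 UMIs, Cox7b2 with 27, Cox8b with 5, Cox8c with 0 and a second Atp5o entry with 0, while the lowest members were Cox7a1 with 136 and Cox4i2 with 329.

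Islets came from male C57/B6 mice aged 16 weeks. The labels name no diet for the wild-type (WT) library, and the methods of the study give standard chow for mice not on the high-fat diet. The other library (HFD) came from mice on a high-fat diet that supplied 60% of calories as fat, given for 10 weeks, from the age of 6 weeks. Each library pooled islets from 4 mice, and dead cells had been taken out with a kit, so each diet had 1 library. No test was possible, and diet, islet preparation and library cannot be told apart. All intervals below are 95% intervals that cover counting error only.

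OXPHOS passes electrons from NADH and succinate through complexes I to IV to oxygen, and complex V (ATP synthase) uses the resulting proton gradient to make ATP. The core membrane subunits of complexes I, III, IV and V are encoded by mitochondrial DNA, whereas complex II is encoded by the nucleus alone. In β cells, ATP made this way closes the potassium channels that hold the membrane at rest, and insulin is then released. Nuclear transcripts are translated outside the mitochondrion and their proteins are imported, where they assemble with the proteins made from mitochondrial DNA.

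The barcodes used had at least 500 genes and at most 20% mitochondrial UMIs, with no maximum of UMIs. In WT 2600 of 3895 barcodes met this and 2493 remained once likely doublets were left out. In HFD these numbers were 7297 of 8951 and 6673. The 13 mitochondrial members were the only mitochondrial genes listed, so this maximum acted on member values. It removed 199 of 2799 WT barcodes with enough genes (7.11%) and 38 of 7335 in HFD (0.518%). Cells were named from markers, and 1905 WT and 5847 HFD cells were β-like. Other named classes held 4 to 166 cells per library, and 189 WT and 164 HFD cells stayed unnamed. The median β-like cell held 29560 UMIs in WT and 11910 in HFD. Insulin transcripts took 60.5% and 56.8% of β-like UMIs, against 0.330% to 1.84% in the other named classes.

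The nuclear members are spread over many chromosomes and are thought to be kept in step partly by shared promoter motifs. Promoters of 300 bases (250 before to 50 after the start, RefSeq, GRCm38.p6) were found for 77 of 92 nuclear members. The letters GCGCATGCG (an NRF1-type motif, either strand) were present in 10 of these 77 genes (12.99%), against 1.95% of all 27025 genes with a promoter. AAGATGGC (a YY1-type motif) was present in 11 (14.3%, against 3.19%), and CCGGAAGT (an ETS-type motif) in 5 (6.49%, against 4.31%). None of the 3 motifs is contained in another. The bases before the start are shown for the nuclear subunit genes at both ends of the β-like comparison (Ndufa4 and Sdhd), for Uqcrh, a complex III gene with an ETS-type match, and for Atp5g1, whose balance with its paralogs differed between classes. Capitals mark a motif, and each stretch is 100 bases on the minus strand, 5′ to 3′, upstream of both the RefSeq and the GENCODE start.
Ndufa4, chr6:11907498-11907597: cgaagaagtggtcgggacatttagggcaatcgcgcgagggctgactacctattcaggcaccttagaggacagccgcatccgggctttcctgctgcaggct
Sdhd, chr9:50603850-50603949: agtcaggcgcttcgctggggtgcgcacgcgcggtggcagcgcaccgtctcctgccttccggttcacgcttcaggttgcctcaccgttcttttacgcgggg
Uqcrh, chr4:116075072-116075171: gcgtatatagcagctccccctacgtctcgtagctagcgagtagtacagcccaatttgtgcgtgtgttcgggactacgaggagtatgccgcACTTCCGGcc
Atp5g1, chr11:96075671-96075770: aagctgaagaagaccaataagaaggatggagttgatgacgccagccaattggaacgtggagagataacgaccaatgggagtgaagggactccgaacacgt
Only the Uqcrh stretch holds one of the 3 motifs. A match is a run of letters and says nothing of binding.

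Summed over cells, mitochondrial transcripts outnumbered nuclear subunit transcripts in every named class. In WT β-like cells the 13 mitochondrial genes summed to 39798 UMIs per 1000000 (CPM), or 3.98% of UMIs, and the 78 nuclear subunits to 9611 CPM (0.961%), which gave 4.14 mitochondrial UMIs per nuclear UMI. In WT this ratio was 4.18 in δ-like, 3.90 in macrophage-like, 2.63 in T-like, 2.55 in ductal-like, 2.49 in endothelial-like, 2.27 in γ-like, 2.26 in α-like, 2.13 in B-like, 2.07 in fibroblast-like and 1.16 in acinar-like cells. By these sums β-like and δ-like cells stood highest, but sums can rest on few cells. At 2000 UMIs per cell, the median WT δ-like cell held 3.70% mitochondrial and 1.575% nuclear subunit UMIs, with a 95th percentile of 17.55% mitochondrial, while the medians of macrophage-like cells were 4.0% and 1.0%. In the 11 WT acinar-like cells the medians went the other way, at 0.15% mitochondrial and 0.5% nuclear, with a mitochondrial 95th percentile of 9.725%, and the summed ratios of complexes I, III and V were 0.728, 0.68 and 0.634. The ratio differed between complexes in WT β-like cells, at 9.18 for complex IV, 4.76 for complex III, 2.63 for complex V and 2.20 for complex I.

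A few mitochondrial genes made up most of the mitochondrial sum in WT β-like cells. mt-Co3 took 18.4% of it, mt-Atp6 18.0%, mt-Co2 16.7% and mt-Co1 15.8%, and mt-Nd6, the one gene on the light strand, took 0.0150%. The nuclear sum was spread more evenly. Cox8a, a small subunit of complex IV, took 4.65% of it, followed by the ATP synthase genes Atp5l (3.37%) and Atp5e (3.24%), Cox4i1 (2.89%) and Atp5g1 (2.83%). Because 3′ counting tags each molecule once, these shares are of molecules, although capture can differ between genes.

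The position of β-like cells among the classes depended on the hormone genes. Over all UMIs, nuclear subunits were lower in WT β-like cells (9611 CPM) than in ductal-like (20276), B-like (16956), T-like (16184), α-like (16068), fibroblast-like (15942), δ-like (15643), endothelial-like (13491), γ-like (11276) and macrophage-like cells (10652), and higher only than in acinar-like cells (4834). With 7 hormone genes left out of the total (65.3% of WT β-like UMIs), β-like cells stood first at 27661 CPM of the remaining UMIs, ahead of γ-like (25680), α-like (25623), δ-like (21943) and ductal-like cells (20676). Endothelial-like cells were then at 13569 and macrophage-like cells at 10730. The γ-like and α-like values, from 10 and 44 WT cells, lay close together.

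**Figure D1:**
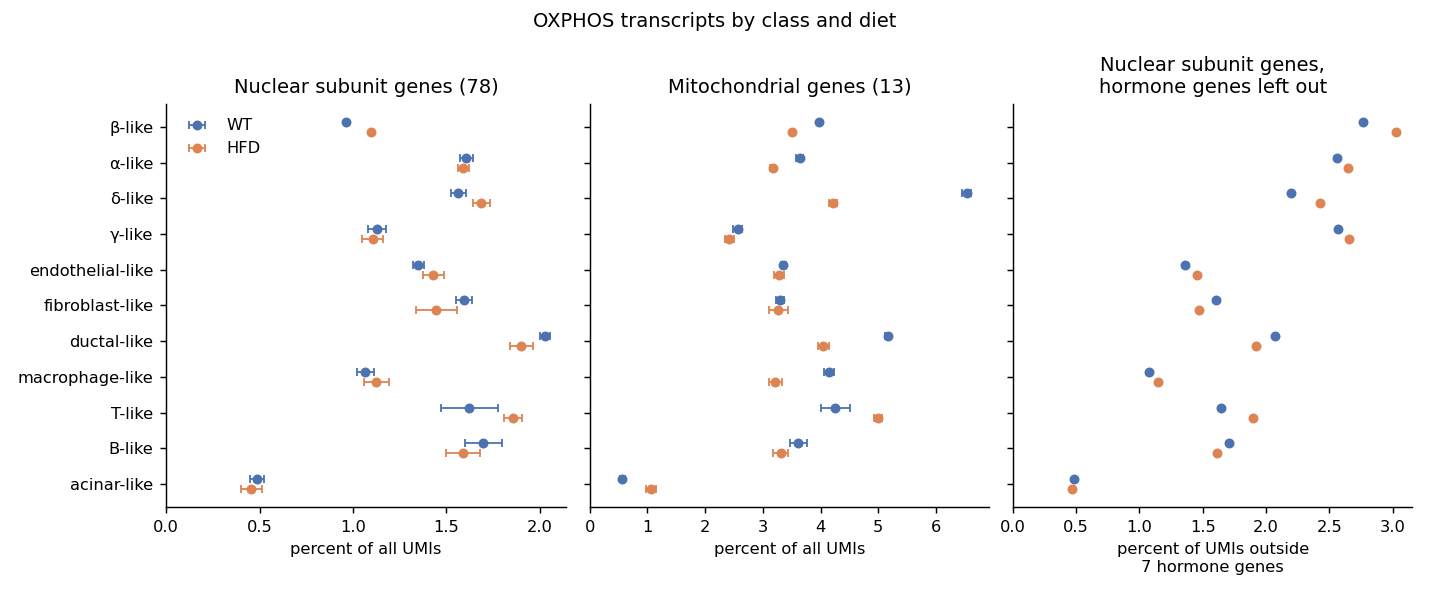
Share of UMIs taken by nuclear subunit genes (left) and mitochondrial genes (middle) in each class, and by nuclear subunit genes with 7 hormone genes left out of the total (right); blue is WT, orange is HFD, 1 library each, and bars are 95% counting intervals (not drawn in the right panel). β-like cells stand near the low end on the left, at 0.961% in WT, and at the high end on the right.

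In β-like cells the genomes differed between diets in opposite directions. The nuclear subunits summed to 9611 CPM in WT against 10971 CPM in HFD, a log2 ratio of 0.19 (0.19 to 0.20) or 1.14-fold. The mitochondrial genes summed to 39798 CPM in WT against 35052 CPM in HFD, a log2 ratio of -0.18 (-0.19 to -0.18). The number of mitochondrial UMIs per nuclear UMI was therefore 4.14 in WT and 3.19 in HFD, a log2 ratio of -0.37 (-0.38 to -0.37). For both genomes the sizes, and in some sets of cells the direction, depended on which β-like cells were compared and on the hormone genes.

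Depth per cell differed between the libraries and moved with these values. Of β-like cells, 87.4% in WT and 33.2% in HFD had over 15000 UMIs, and 324 WT cells but no HFD cell had over 50000. Within ranges of UMIs per cell the nuclear log2 ratio was 0.03 (-0.02 to 0.09) under 5000 UMIs, 0.09 from 5000 to 10000, 0.05 from 10000 to 15000, 0.17 from 15000 to 20000, 0.24 from 20000 to 30000 and 0.27 from 30000 to 50000. The mitochondrial log2 ratio was 0.96 under 5000 UMIs, with 102 WT and 227 HFD cells, then -0.16, -0.77, -0.80, -0.61 and -0.57 over the same 5 deeper ranges. HFD was thus lower in mitochondrial transcripts in the 5 deeper ranges, by more than in the pooled cells in 4 of them, and higher in the shallowest one. With hormone genes left out, the nuclear log2 ratios over the 6 ranges were -0.24, 0.13, 0.30, 0.38, 0.31 and 0.34, so the sign under 5000 UMIs turned, and the mitochondrial ones were 0.69, -0.12, -0.51, -0.59, -0.53 and -0.50. Depth was closer within ranges but not equal, with medians of 2968 UMIs in WT and 3818 in HFD in the shallowest range and 38706 and 33016 in the deepest. The same range also holds different parts of each library.

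**Figure D2:**
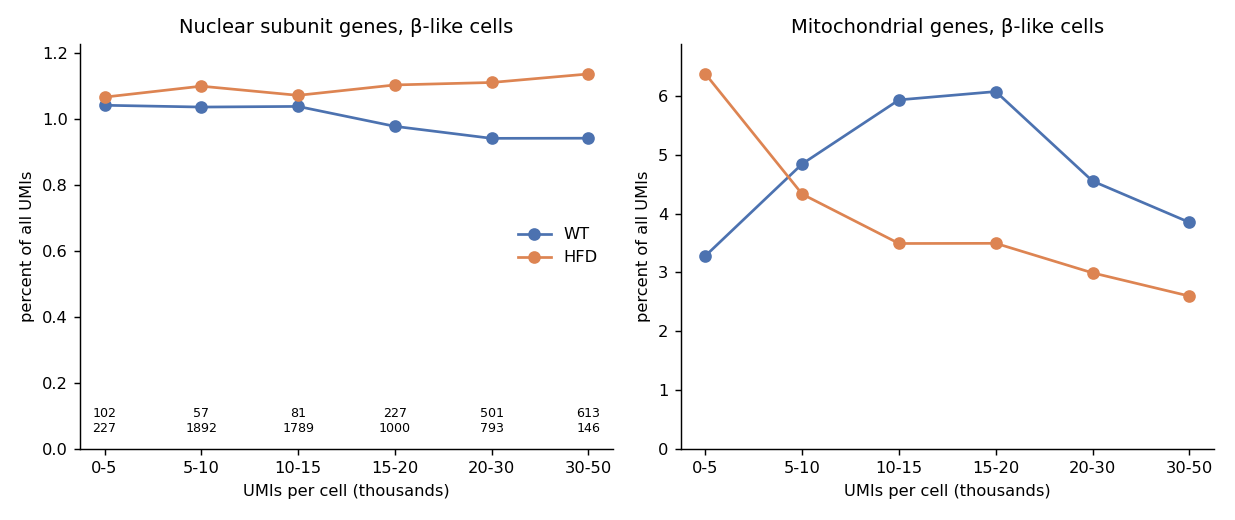
Share of UMIs from nuclear subunit genes (left) and mitochondrial genes (right) in β-like cells grouped by UMIs per cell (x axis, in units of 1000); blue is WT and orange HFD, and the numbers at the foot of the left panel are WT cells over HFD cells. The mitochondrial lines cross between the first and second ranges, from 3.28% in WT and 6.37% in HFD under 5000 UMIs to 3.85% and 2.60% from 30000 to 50000.

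Most β-like clusters came mainly from 1 library. Outside the shared ones, the log2 ratio of mitochondrial to nuclear UMIs ran from -0.72 (8 WT cells) to 0.52 (10 WT cells). The nuclear log2 ratio there ran from -0.22 (7 WT and 2 HFD cells) to 0.38 (8 WT cells). In cluster 4, with 22 WT and 192 HFD cells, it was -0.15 (-0.20 to -0.10), or 0.09 with hormone genes left out. Clusters 0, 3 and 6 held at least 50 cells of each, 1715 WT and 983 HFD cells in all. Within them the nuclear log2 ratio was 0.29, 0.29 and 0.22, and the mitochondrial one 0.10, -0.01 and -0.07. Summed over the 3 clusters the nuclear log2 ratio was 0.24 (0.23 to 0.25), the mitochondrial one was 0.05 (0.05 to 0.06), and the log2 ratio of mitochondrial to nuclear UMIs was -0.19 (-0.20 to -0.18). A lower mitochondrial to nuclear ratio in HFD was thus found in the pooled cells, in each of the 3 shared clusters and in each depth range above 5000 UMIs, but not below it. The mitochondrial log2 ratio over the 3 clusters changed sign with the hormone genes. With these left out of the total it was -0.13 (-0.134 to -0.125), at -0.06, -0.16 and -0.09 in the single clusters, and the nuclear one was 0.06 (0.05 to 0.07).

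Per cell, the spread within a library was wide. With each cell thinned to 2000 UMIs (14 WT and 12 HFD cells were shallower), nuclear subunits took a median of 0.95% (5th to 95th percentile 0.55% to 1.45%) of UMIs in WT and 1.05% (0.65% to 1.6%) in HFD. Mitochondrial genes took 3.70% (1.6% to 9.13%) in WT and 3.35% (1.95% to 7.20%) in HFD. Without thinning the medians were 0.947% and 1.082% for nuclear and 3.70% and 3.32% for mitochondrial genes. The ranges of the libraries overlapped widely for both genomes, and the upper tail of mitochondrial shares was longer in WT.

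Gene by gene in β-like cells, log2 ratios past 0.32 in either direction were counted. Of 76 nuclear subunits with at least 50 UMIs in these cells, 9 (11.8%) were higher in HFD by that much and 1 (1.32%) was lower. Over all 12272 genes with at least 50 UMIs, 10.2% were higher and 14.3% lower, and over the 3191 genes with at least 20 CPM, closer to most members in level, 9.65% were higher and 6.24% lower. The share of nuclear subunits past the threshold upward was thus near the background. With hormone genes left out of the total, the 9 became 4, and within the shared clusters it became 0, while in cells of 10000 to 20000 UMIs it became 35. With hormone genes kept, the shared clusters gave 19 and the cells of that depth 9. No share over all genes was worked out for these settings, so their counts have no background beside them. The median log2 ratio was 0.17 for the nuclear subunits, with 65 of 76 above 0, beside -0.02 and 0.05 for the wider sets, of which 47.4% and 59.9% were above 0. In the pooled cells and over all UMIs, the nuclear difference was thus made of many small differences, mostly of one sign, rather than a few large ones. Of the 13 mitochondrial genes 11 were below 0, with a median of -0.14, 1 (mt-Nd6) was past the threshold upward and none was past it downward.

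Short transcripts had higher ratios among members and other genes alike. Nuclear subunits with a median transcript length of up to 500 bases had a median log2 ratio of 0.26 (11 genes), those of 500 to 800 bases 0.17 (36 genes), those of 800 to 1200 bases 0.11 (19 genes) and longer ones 0.12 (10 genes). The corresponding medians of other genes with at least 20 CPM were 0.18, 0.13, 0.11 and 0.01. Most members are short, and the part of length in the nuclear difference was not tested. Markers of RNA state differed too. Malat1, a nuclear RNA, was at 3847 CPM in WT against 4609 CPM in HFD, Neat1 at 199 and 249 CPM, and Gm42418, which overlaps ribosomal RNA, at 1053 and 544 CPM.

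**Figure D3:**
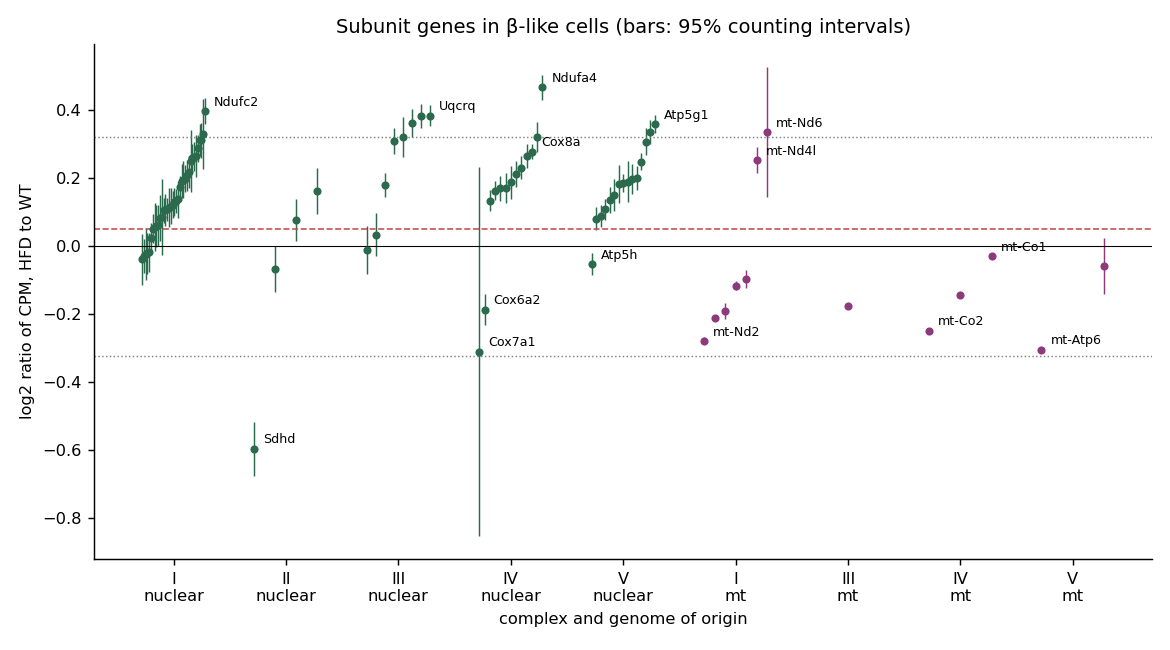
Log2 ratio of CPM, HFD to WT, for each subunit gene in β-like cells, by complex and genome (green nuclear, purple mitochondrial), with 95% counting intervals. Dotted lines mark log2 ratios of 0.32 and -0.32, and the dashed red line is the median (0.05) over genes of 20 CPM or more; nuclear genes sit mostly above it, while Sdhd lies at -0.60 and 11 of 13 mitochondrial genes lie below 0.

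Complex I takes electrons from NADH and is the largest of the complexes. Its 36 nuclear subunits had a median log2 ratio of 0.13, with 31 above 0 and 2 past the threshold. Ndufb11, its most abundant nuclear subunit, was at 209 CPM in WT against 236 CPM in HFD. Ndufc2, a membrane arm subunit, was at 150 and 198 CPM (log2 0.40, 0.36 to 0.44), and Ndufa9 at 20.02 and 25.2 CPM (0.33, 0.23 to 0.43). At the other end were Ndufa10, at 42.0 and 40.9 CPM, and Ndufab1, an acyl carrier protein, at 98.2 and 96.3 CPM, with intervals that held 0. Ndufc2 was higher in HFD in each of the 5 depth ranges above 5000 UMIs (log2 0.30 to 0.52), whereas Ndufa9 ranged from -0.44 to 0.41. The Ndufc2 interval lay above 0 in 4 of the 5 and held 0 from 5000 to 10000 UMIs (-0.06 to 0.68).

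The mitochondrial subunits of complex I were not uniform. mt-Nd4 was at 2747 CPM in WT and 2372 in HFD, mt-Nd2 at 2330 and 1921 (log2 -0.28), mt-Nd1 at 1613 and 1488, mt-Nd3 at 466 and 408, and mt-Nd5 at 329 and 308. mt-Nd4l was higher in HFD, at 138 and 165 CPM (0.25, 0.21 to 0.29), and mt-Nd6 was at 5.95 and 7.51 CPM (0.34, 0.15 to 0.53) from 372 and 592 UMIs. Both genes share bases with a neighbour, mt-Nd4l with mt-Nd4 on the same strand and mt-Nd6 with mt-Nd5 on the opposite one, so their counts are uncertain.

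Complex II (succinate dehydrogenase) also belongs to the citric acid cycle. It was the one complex whose nuclear sum was lower in HFD in β-like cells, at 206 CPM in WT against 197 CPM in HFD (log2 -0.06, -0.10 to -0.03). Of its 4 genes 2 were above 0 and 2 below, so the sum does not stand for each gene. By depth the sum was at 0.14 (-0.27 to 0.56) under 5000 UMIs and -0.01 (-0.30 to 0.30) from 5000 to 10000. Sdhd, one of the membrane anchors (chr9:50596357-50603812, minus strand), was at 46.0 CPM in WT against 30.4 CPM in HFD, a log2 ratio of -0.60 (-0.68 to -0.52), and was the one nuclear subunit past -0.32. The flavoprotein Sdha, the most abundant, was at 59.3 and 62.5 CPM, the iron-sulphur subunit Sdhb at 52.2 and 49.9 CPM, and the other anchor Sdhc at 48.5 and 54.4 CPM (0.16, 0.10 to 0.23). The anchors thus lay on opposite sides of 0. Sdhd was lower in HFD, with the interval below 0, in 4 of the 5 depth ranges above 5000 UMIs, down to -0.96, and stood at 0.08 (-0.68 to 0.96) from 5000 to 10000. In all 9 named classes with Sdhd UMIs in both libraries its ratio was below 0, with the interval below 0 in 4 of them. In α-like cells it was at 103 and 61.8 CPM (49 and 43 UMIs), in ductal-like cells at 81.4 and 25.02 CPM (80 and 5 UMIs), and in endothelial-like cells at 63.1 and 22.6 CPM (38 and 4 UMIs).

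Complex III hands electrons from ubiquinol to cytochrome c. It had the highest nuclear sum ratio, 994 CPM in WT against 1221 CPM in HFD (log2 0.30, 0.28 to 0.31). Of its 8 nuclear subunits 3 were past the threshold. Uqcrq, the most abundant, was at 226 and 295 CPM (0.38, 0.35 to 0.41), and Uqcrh, the hinge protein, at 166 and 216 CPM (0.38, 0.35 to 0.42). The core proteins Uqcrc1, at 46.5 and 46.2 CPM, and Uqcrc2, at 57.7 and 59.1 CPM, had intervals that held 0. mt-Cytb, the only mitochondrial subunit of the complex, was at 4734 CPM in WT against 4191 CPM in HFD (-0.18, -0.18 to -0.17). Within this complex the nuclear sum and mt-Cytb thus lay on opposite sides of 0, although 1 of the 8 nuclear subunits (Uqcrc1, -0.01) lay just below 0.

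Complex IV (cytochrome c oxidase) reduces oxygen. Cox8a was its most abundant nuclear subunit, at 447 CPM in WT against 542 CPM in HFD (0.28, 0.26 to 0.30). Ndufa4, named for complex I but known as a subunit of complex IV (chr6:11900292-11907497, minus strand), had the highest ratio of all nuclear subunits, with 149 and 207 CPM (0.47, 0.43 to 0.50). It was higher in HFD in each depth range above 5000 UMIs, from 0.25 to 0.89. The interval lay above 0 in 4 of these 5 ranges and held 0 from 5000 to 10000 UMIs (-0.12 to 0.64). Cox7b was at 112 and 139 CPM (0.32, 0.28 to 0.37) and Cox6c at 225 and 247 CPM (0.13, 0.10 to 0.17). The 3 mitochondrial subunits were unlike in size in the pooled cells, with mt-Co2 at 6646 and 5594 CPM (-0.25), mt-Co3 at 7306 and 6611 CPM (-0.14) and mt-Co1 at 6270 and 6145 CPM (-0.03). In the 5 depth ranges above 5000 UMIs mt-Co1 ran from -0.59 to -0.16, with all 5 intervals below 0. Under 5000 UMIs it was at 1.01 (0.93 to 1.09), so its pooled ratio mixes ranges on opposite sides of 0.

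Complex V makes ATP. Atp5l, its most abundant nuclear subunit in these cells, was at 324 CPM in WT against 385 CPM in HFD (0.25, 0.22 to 0.27). Atp5g1, one of 3 genes for the subunit of the rotating ring, was at 272 and 349 CPM (0.36, 0.33 to 0.39), and Atp5j2 at 161 and 203 CPM (0.34, 0.30 to 0.37). Atp5h, in the stalk, was at 233 and 225 CPM (-0.05, -0.08 to -0.02), and Atp5j, also in the stalk, at 192 and 203 CPM (0.08, 0.05 to 0.12). mt-Atp6, the proton channel subunit, had the lowest ratio of the mitochondrial genes, at 7177 CPM in WT against 5808 CPM in HFD (-0.31, -0.31 to -0.30). mt-Atp8, which shares bases with mt-Atp6, was at 35.0 and 33.7 CPM.

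The assembly factors differed less. The 12 Ndufaf and Sdhaf genes summed to 187 CPM in WT against 189 CPM in HFD, with a median log2 ratio of 0.00 and none past the threshold. Among those with at least 500 UMIs, Ndufaf4 was at 16.3 and 18.1 CPM (0.15, 0.04 to 0.27), Ndufaf5 at 3.78 and 4.38 CPM, Ndufaf2 at 11.6 and 11.1 CPM and Ndufaf3 at 31.4 and 28.9 CPM (-0.12, -0.21 to -0.03). The associated gene Cox7a2l was at 260 and 317 CPM (0.29, 0.26 to 0.32), and Atp5s at 5.28 and 5.18 CPM.

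Genes of the same pathway outside the names were mixed. For comparison, 10.2% of all genes with at least 50 UMIs were past the threshold upward and 14.3% downward, with a median log2 ratio of -0.02. Among genes with at least 20 CPM these values were 9.65%, 6.24% and 0.05. Counts in lists this small are given beside these shares and are not read as results about the lists. Of 33 other assembly factors, 4 were past the threshold upward and 1 downward, with a median log2 ratio of 0.10. Of 13 electron carriers, ATP synthase partners and carriers, 4 were past it upward and 1 downward, with a median of 0.23. Slc25a3, the phosphate carrier that feeds ATP synthase, was at 204 CPM in WT against 293 CPM in HFD (0.52, 0.49 to 0.55). It was higher in each of the 5 depth ranges above 5000 UMIs, with the interval above 0 in 4 of them. Cytochrome c (Cycs) was at 54.5 and 67.1 CPM (0.30), and Gpd2, the mitochondrial end of the glycerol phosphate shuttle, at 50.1 and 35.3 CPM (-0.50, -0.58 to -0.43). None of 17 genes of the citric acid cycle and its entry was past the threshold upward and 1, Pcx, was past it downward, at 24.6 and 17.6 CPM, with a median of 0.03. Of 77 mitochondrial ribosomal protein genes 6 were higher and 1 lower (median 0.13), of 15 genes of mitochondrial genome expression 2 were higher and 2 lower (median 0.06), and of 10 chaperones and proteases 1 was higher (median 0.00). Of 7 regulators 1 was higher and 2 were lower (median -0.05). Ppargc1a, a coactivator of mitochondrial genes, was at 7.71 CPM in WT against 18.0 CPM in HFD (1.22, 1.07 to 1.38), but over the depth ranges above 5000 UMIs it ran from -0.92 to 0.89. Ppargc1b was at 1.68 and 0.850 CPM and Esrra at 4.06 and 3.22 CPM.

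Across classes, the diet difference was not the same. For nuclear subunits the interval lay above 0 in 4 of 11 named classes (β-like, δ-like, endothelial-like and T-like), below 0 in 2 (fibroblast-like and ductal-like) and held 0 in 5. For mitochondrial genes it lay below 0 in 7, above 0 in 2 (T-like and acinar-like) and held 0 in 2 (endothelial-like and fibroblast-like). The ratio of mitochondrial to nuclear UMIs was lower in HFD, with the interval below 0, in 6 classes. They were β-like (4.14 and 3.19), δ-like (4.18 and 2.50), macrophage-like (3.90 and 2.86), ductal-like (2.55 and 2.13), α-like (2.26 and 1.99) and endothelial-like cells (2.49 and 2.30). It was higher in acinar-like cells alone (1.16 and 2.33, from 11 and 4 cells). All classes share the same pair of libraries, so they are not separate observations of diet.

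**Figure D4:**
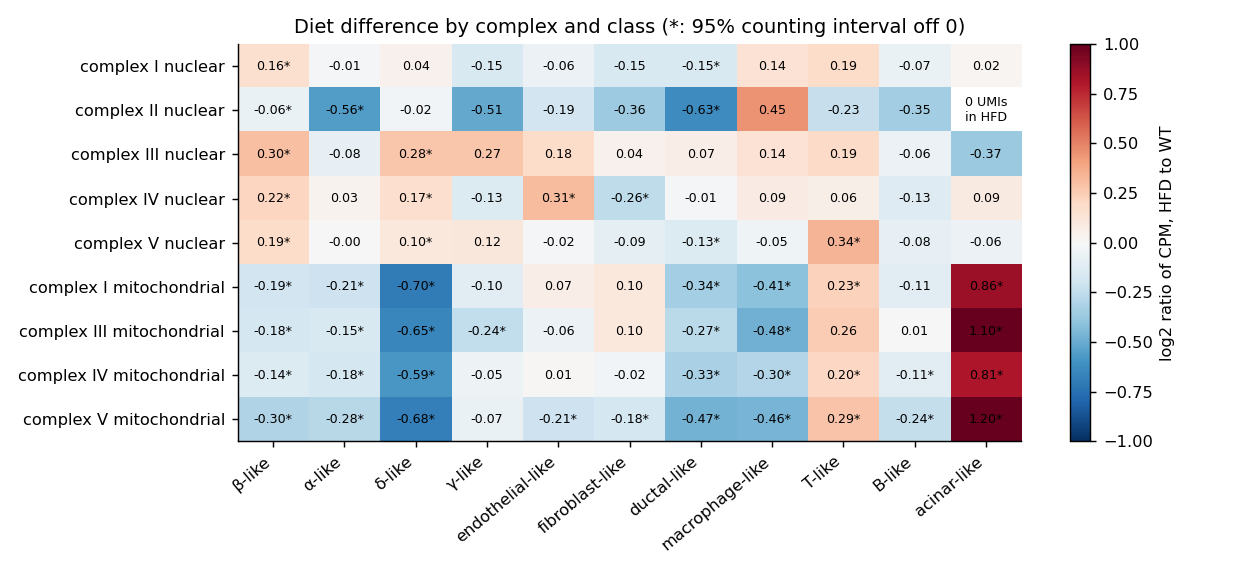
Log2 ratio of CPM, HFD to WT, of the summed subunit genes of each complex and genome (rows) in each named class (columns); red is higher in HFD, blue lower, the scale stops at 1 either way, and an asterisk marks a 95% counting interval that excludes 0. In β-like, α-like, δ-like, γ-like, ductal-like and macrophage-like cells all 4 mitochondrial rows are below 0, and no UMI of complex II was counted in the 4 HFD acinar-like cells.

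δ-like cells had the largest mitochondrial difference among the classes with over 40 cells in each library, 65326 CPM in WT against 42219 CPM in HFD (-0.63, -0.66 to -0.60). The WT cells were spread more widely. At 2000 UMIs per cell the median was 3.70% in WT and 3.0% in HFD, whereas the upper quartiles were 7.81% and 3.70%. In endothelial-like cells the nuclear sum was 13491 CPM in WT against 14279 CPM in HFD (0.08, 0.02 to 0.15), and the mitochondrial sum 33540 and 32835 CPM (-0.03, -0.07 to 0.01). Different clusters held most of these cells in each library, 66 WT and 4 HFD cells in one and 40 WT and 74 HFD cells in the other. Within the latter the nuclear log2 ratio was 0.08 (-0.01 to 0.16) and the mitochondrial one -0.17 (-0.22 to -0.12).

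Several subunits have paralogs used in particular tissues, and these gave the sharpest differences between classes. Cox6a2, the form of complex IV subunit 6a known from heart and skeletal muscle (chr7:128205435-128206387, minus strand, opposite Itgad), was at 117 CPM in WT β-like cells and 103 CPM in HFD (7330 and 8117 UMIs). Its broad paralog Cox6a1 was at 110 and 124 CPM, so β-like cells held both at similar levels. In α-like, δ-like, γ-like, endothelial-like, fibroblast-like, ductal-like and macrophage-like cells Cox6a2 had 0 to 3 UMIs per library, or at most 5.65 CPM, while Cox6a1 was at 75.3 CPM or more. T-like cells held 0 Cox6a2 UMIs in WT and 4 in HFD (12.5 CPM), with Cox6a1 at 150 and 188 CPM. The few acinar-like cells held 2 in WT (15.7 CPM) and 0 in HFD, with Cox6a1 at 70.7 and 17.9 CPM. Between WT β-like and endothelial-like cells the log2 ratio of Cox6a2 was 5.14 (3.29 to 8.19), against 2 endothelial-like UMIs. Across the depth ranges above 5000 UMIs its diet difference in β-like cells ran from -0.99 to 0.90, beside the pooled log2 ratio of -0.19 (-0.23 to -0.14).

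Outside β-like cells, Cox6a2 had 22 UMIs in the 30 HFD B-like cells, at 286 CPM, and 1 UMI in the 12 WT ones. All 22 lay in 6 cells, which also held 13 UMIs of Siglech and 12 of Ccr9, both known from plasmacytoid dendritic cells, and no UMI of the B cell genes Cd79a and Ms4a1. Siglech and Cox6a2 did not always go together. Of all kept cells with a Siglech UMI, none of 11 in WT and 4 of 7 in HFD held a Cox6a2 UMI. The other 24 HFD B-like cells held no Cox6a2 UMI, 1 Siglech UMI and 21 Cd79a UMIs. The HFD B-like cells held 307 Cox6a2 UMIs per 10000 Ins2 UMIs, against 2.51 in HFD β-like cells. The 6 cells were singled out after their values were seen.

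Cox4i2 and Ndufa4l2, paralogs of Cox4i1 and Ndufa4 known to respond to low oxygen, were nearly absent from β-like cells, with 1 and 0 UMIs of Cox4i2 and 12 and 11 of Ndufa4l2. A zero among the HFD β-like cells allows up to 0.0381 CPM. Of the 300 Cox4i2 UMIs in all kept cells 91.0% came from 8 unnamed clusters with at least 1000 CPM of Rgs5, a gene known from pericytes (61 WT and 73 HFD cells, chosen after their values were seen). These clusters also held endothelial markers, with Pecam1 at 499.9 to 877 CPM and Cdh5 at 298 to 759 CPM, against 1030 and 1033 CPM of Pecam1 and 633 and 667 CPM of Cdh5 in the 2 endothelial-like clusters, and endothelial and pericyte markers were the first and second candidate lists in all 8, in either order. The same clusters held 79.6% of the 839 Ndufa4l2 UMIs. Ndufa4l2 was also found in fibroblast-like cells, at 210 CPM in WT against 361 CPM in HFD, beside Ndufa4 at 332 and 234 CPM. Cox4i1 was present in every class, from 215 CPM in HFD acinar-like to 1231 CPM in HFD ductal-like cells, with 278 and 311 CPM in β-like cells.

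Other pairs were one-sided. Cox7a1 had 59 and 60 UMIs in β-like cells (0.944 and 0.761 CPM), whereas Cox7a2 was at 174 and 204 CPM. Cox6b1 was at 158 and 183 CPM, Cox8a is given above, and Cox6b2 and Cox8b were under the minimum. The 3 genes of the ring subunit encode one mature protein with different import signals, and their order changed between classes. In β-like cells Atp5g1 stood first, with 272 CPM in WT and 349 in HFD, then Atp5g2, with 233 and 251, and Atp5g3, with 99.0 and 110. In α-like cells Atp5g2 stood first, at 449 and 473 CPM, with Atp5g1 at 266 and 250. Atp5g2 also stood above Atp5g1 in δ-like cells (466 against 300 CPM in WT, 471 against 340 in HFD), in endothelial-like cells (295 against 189, and 254 against 186) and in macrophage-like cells (366 against 151, and 414 against 142). The order was not particular to β-like cells. In WT acinar-like cells Atp5g1 stood above Atp5g2 (19 and 13 UMIs), though not in HFD (7 and 9 UMIs). In T-like cells they were equal in WT (6 UMIs each), with Atp5g2 higher in HFD (683 against 382 CPM). The remaining classes are not listed here.

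**Figure D5:**
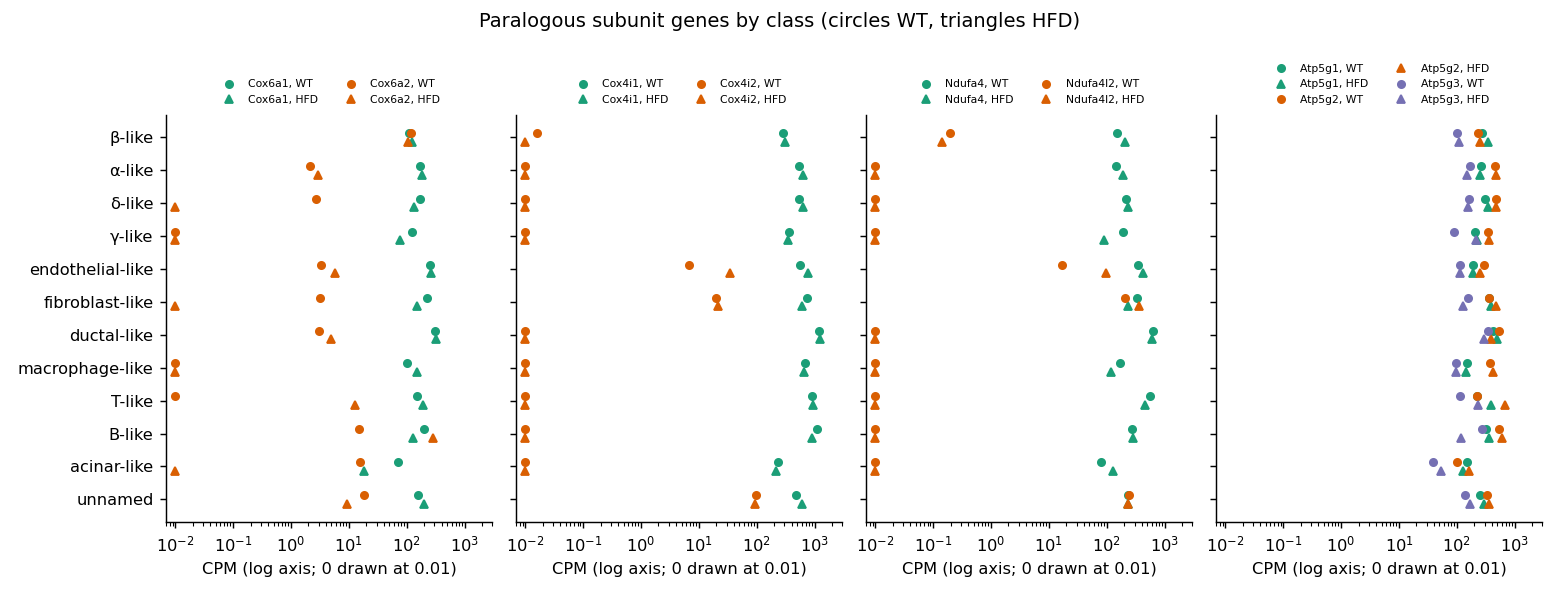
CPM on a log axis of paralogous subunit genes (colours) in each class, with circles for WT and triangles for HFD and values of 0 drawn at 0.01. Cox6a2 lies near Cox6a1 in β-like cells. In HFD B-like cells it lies above Cox6a1, through 6 cells with no UMI of Cd79a or Ms4a1. Cox4i2 and Ndufa4l2 are highest in unnamed or fibroblast-like cells, and Atp5g1 lies above Atp5g2 in β-like cells.

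Between WT β-like and endothelial-like cells, 75 nuclear subunits had at least 200 UMIs. The median log2 ratio was -0.46 over all UMIs, with 62 lower in β-like cells, and 1.06 with the hormone genes left out, with 72 higher. The 3 lowest were Cox5a, at 92.3 CPM in β-like and 320 CPM in endothelial-like cells, Ndufa8, at 68.7 and 212 CPM, and Ndufa9, at 20.02 and 59.7 CPM. Without hormone genes their log2 ratios in WT were -0.28, -0.11 and -0.06, and in HFD -0.45, 0.25 and 0.27, so only Cox5a was below 0 in both libraries. After Cox6a2 the highest were Ndufa1, at 122 and 71.4 CPM (0.77, 0.34 to 1.24), and Ndufc1, at 102 and 66.4 CPM (0.61, 0.17 to 1.1), both subunits of complex I.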

How the data were processed

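Single-cell RNA of pooled islets was measured in 1 WT and 1 HFD library (10x Genomics 3′ v3). The authors deposited unnormalised UMI counts for every gene and barcode, made with Cell Ranger (v3.0.2) on the mm10 build. The WT library held 73843674 UMIs and the HFD library 94375138, with 9 barcodes in common, 3 of them among kept cells. Groups came from the GEO labels.

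Barcodes had at least 500 genes and at most 20% mitochondrial UMIs. Scrublet's automatic threshold (scanpy v1.11.5) called 4 WT and 2 HFD barcodes and was judged not to have worked, so the top-scoring 0.8% per 1000 barcodes was left out (107 WT and 624 HFD barcodes among those kept otherwise). Cells were scaled to 10000 UMIs, square-root transformed and clustered on 2000 variable genes without members, hormone genes and Cck (50 components, 15 neighbours, Leiden with igraph v0.11.9, resolution 1). Clusters not β-like were clustered again at resolution 2, and mixed ones of at least 30 cells once more. These later rounds used at most 30 components. They left out members, Ins1 and Ins2 but kept the other hormone genes, so these could shape the α-like, δ-like and γ-like clusters. A class name needed at least 3 detected markers (0.5 per 10000 UMIs and 2 times the other clusters) and a second class under 0.5 of its score. A cluster whose top 10 genes held more markers of another class stayed unnamed. Low-UMI clusters also needed a pair of own markers there, and the erythroid name needed Alas2. The naming scheme was run in 2 versions and the second clustering was added after clusters, leading genes and class sizes had been seen. Member values by class were looked at only under the last one. Names may therefore differ from those of the study.

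UMIs were summed per class and library and given as CPM. Sums carry exact Poisson intervals, ratios exact conditional intervals and ratios of ratios Woolf intervals (scipy v1.17.1), all at 95%. No p-value is given. The routine was tested on simulated data. A zero was given the limit of 3 counts. Complexes were assigned from gene symbols after member totals had been seen. Genes named in β-like cells were all mitochondrial members and, per complex, the nuclear subunit with most UMIs and the 2 highest and 2 lowest ratios among those with at least 500 UMIs. The same rule gave assembly factors, and the 3 highest and 3 lowest β-like to endothelial-like ratios and the paralog sets were added. Members and lists were chosen with earlier results of these data known. Positions and lengths are from GENCODE M21 (GRCm38, the same build as mm10), in which 38 of 105 members overlap another gene, so that their counts are uncertain. Alternatives were a maximum of 15000 UMIs, other mitochondrial and gene limits, doublets kept, other scalings and resolution 0.5. Cells of 10000 to 20000 UMIs and shared clusters, each also without hormone genes, were added after seeing the data.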

Additional observations from a re-analysis of the deposited data

Results flagged for a closer look

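In 4 instances the difference between diets in a class lay on the other side of 0 from that in β-like cells, with both counting intervals off 0. For nuclear subunits β-like cells were at a log2 ratio of 0.19, against -0.14 (-0.26 to -0.03) in fibroblast-like cells, with 59 WT and 23 HFD cells, and -0.0928 (-0.14 to -0.04) in ductal-like cells, with 57 and 32 cells. For mitochondrial genes β-like cells were at -0.18, against 0.23 (0.14 to 0.32) in T-like cells, with 13 and 166 cells, and 0.92 (0.76 to 1.07) in acinar-like cells, with 11 and 4 cells. With 1 library per diet the difference between classes was not tested.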

How the results depend on the processing

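No paired analysis was possible because each group had 1 library, and no library could be left out. In β-like cells the mitochondrial log2 ratio of -0.18 was -0.41 with a maximum of 15000 UMIs, -0.15 with a mitochondrial maximum of 10%, -0.19 with at least 1000 genes, -0.19 with doublets kept, -0.18 at resolution 0.5, -0.24 without hormone genes, -0.19 without mitochondrial genes in the total and -0.15 with TMM scaling. It was -0.79 in cells of 10000 to 20000 UMIs (308 WT and 2789 HFD cells) and reversed to 0.0541 within the shared clusters, 2 settings chosen after seeing the data. With hormone genes also left out these were -0.578 and -0.13, so the reversal held only for totals with hormone genes. The cause was not tested. The nuclear log2 ratio of 0.19 was 0.0591 with that UMI maximum, 0.13 without hormone genes, 0.18 without mitochondrial genes, 0.22 with TMM scaling, 0.13 in cells of 10000 to 20000 UMIs (0.346 without hormone genes) and 0.24 in the shared clusters (0.0581 without them). The log2 ratio of mitochondrial to nuclear UMIs, -0.37, was -0.47 with the UMI maximum, -0.34 with the 10% limit, -0.92 in cells of 10000 to 20000 UMIs, which were deeper in WT within that range, and -0.19 in the shared clusters. It stayed below 0 under all these alternatives. In β-like cells under 5000 UMIs, however, it was 0.92, and outside the shared clusters it reached 0.52 in 1 cluster. The 9 nuclear subunits past the log2 threshold of 0.32 upward were 4 without hormone genes, 14 with TMM scaling, 19 in the shared clusters (0 without hormone genes), 35 in cells of 10000 to 20000 UMIs without hormone genes and 0 at a fold of 1.5. The 1 past it downward became 2 with the UMI maximum, with no mitochondrial maximum, with at least 1000 genes, at resolution 0.5 and without hormone genes, 3 with doublets kept or in cells of 10000 to 20000 UMIs, and 4 with no minimum. These counts have no share over all genes beside them, since none was worked out for the alternatives. In endothelial-like cells the mitochondrial log2 ratio of -0.03 was 0.0126 with the 10% limit, 0.0138 with doublets kept and -0.17 in the shared cluster. In all 48 of 91 values stayed within the main interval or within 1.5 times the main count. Depth limits the smaller classes most, since 39 of 78 HFD endothelial-like cells held under 2000 UMIs.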

Other observations

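The barcodes removed by the mitochondrial maximum held lower shares of nuclear OXPHOS transcripts than β-like cells, more so in WT than in HFD. The 199 WT barcodes with at least 500 genes and over 20% mitochondrial UMIs had a median of 2292 UMIs and 45.8% mitochondrial UMIs. Over UMIs outside the mitochondrial genes, nuclear subunits were at 4997 CPM, against 10009 in WT β-like cells, and insulin took 14.5% of those UMIs, against 63.0%. The 38 such HFD barcodes had a median of 2216 UMIs, 34.4% mitochondrial UMIs, 8493 CPM of nuclear subunits on that scale against 11370 in HFD β-like cells, and 31.9% insulin against 58.9%. Mitochondrial UMIs per nuclear UMI were 169 in the WT barcodes and 61.7 in the HFD ones.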
